A study of Mus musculus with 6 samples.

Results

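The genes described here are 46 genes that mark or drive the phases of the cell cycle, out of 55471 gene identifiers counted in each library. They were chosen by name from a list of G1, S, G2 and M phase genes. The rule used no measured values, but earlier results of these data were known when it was set. By role they comprised 8 G1 cyclins and kinases, 2 CDK inhibitors, 3 E2F genes, 12 S phase genes and 21 genes of the G2 and M phases. The RNA came from mouse epiblast stem cells, pluripotent cells of the post-implantation epiblast, after 2 days of differentiation in serum as embryoid bodies. One group of 3 libraries, labelled Mixl1 KO, came from a line in which Mixl1, a homeobox gene of the primitive streak, is knocked out. The other 3, labelled Mixl1 induced, came from a Mixl1-inducible line that had received doxycycline at 1 µg/mL in the last 24 h.

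Before differentiation both lines grew on feeders, irradiated fibroblasts of mouse embryos, in medium with Activin A (20 ng/mL) and bFGF (10 ng/mL). The labels do not give the promoter of the inducible gene, the number of clones or the parent of each line, nor do they state whether the knockout cells received doxycycline. Line, Mixl1 and possibly the drug cannot be told apart in this design. The labels do not say whether the 3 libraries of a group came from separate cultures. A p-value here therefore sets the difference between the groups against the spread among these libraries, which may be technical variation only. Gene reads ranged from 17490426 to 21026423 per library. Mixl1 stood at 39.9, 36.8 and 42.7 CPM (read count scaled to library size after TMM normalisation) in the knockout libraries and at 427, 441 and 429 CPM in the induced libraries; reads over the whole gene do not show which exons they came from, so they do not check the knockout. All 8 epiblast markers examined, Pou5f1 among them, were detected. Of these, 5 were higher in the induced libraries (Sox2 3.63-fold, Fgf5 3.05-fold, Otx2 2.54-fold, Lin28a and Utf1) and 3 lower (Nanog 3.01-fold, Pou5f1 1.60-fold and Dnmt3b). Over all genes tested, 31.0% were higher and 31.6% lower, by the edgeR test described below. The summed level of the 8 epiblast markers, most of it Pou5f1 in the knockout, was 2015 to 2149 CPM in the knockout and 1819 to 1898 CPM in the induced libraries.

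The cell cycle is driven by cyclin-dependent kinases (CDKs), which are switched on by cyclins and held back by inhibitors. In G1, D-type cyclins with CDK4 or CDK6 and E-type cyclins with CDK2 inactivate the retinoblastoma protein and free E2F factors, which switch on the genes of DNA replication. Genes of mitosis are switched on later, by the MuvB complex with B-MYB and FOXM1 and by the CCAAT-binding factor NF-Y. Epiblast cells are known for a fast cycle with a short G1 phase.

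Promoter sequences were examined because these classes of genes are known to differ in them. RefSeq promoter windows (GRCm38.p6, the mm10 assembly), reaching from 250 bases before the start to 50 after it, were held for 37 of the 46 genes, in 42 windows. Aurkb, Ccna2, Ccnd1, Ccnd2, Ccne2, Gins2, Kif20a, Mcm4 and Tpx2 had none. The windows were searched on both strands for the cell cycle genes homology region, CHR (TTTGAA or TTCGAA), which MuvB binds, for the CCAAT box (CCAAT), and for E2F elements (TTTCCCGC, TTTGGCGC, TTTCGCGC or TTTGCCGC). Matches of one element may overlap each other. Of 17 windows of G2 and M phase genes, 14 held a CHR (82.4%, exact Clopper-Pearson 95% interval 56.6% to 96.2%), against 19.2% of all 32851 promoter windows. With the 250 bases before the start alone, the share was 8 of 17 (47.1%), against 17.1% of all windows. A CCAAT box lay in 16 of the 17 (94.1%, interval 71.3% to 99.9%), against 37.4% of all windows, and an E2F element in 1 (5.88%), against 2.26%. In the 11 windows of S phase genes the order was different, with an E2F element in 6 (54.5%, interval 23.4% to 83.3%), a CCAAT box in 8 (72.7%) and a CHR in 2 (18.2%). Before the start alone, an E2F element lay in 4 of the 11 (36.4%), against 1.86% of all windows. The 14 windows of G1 genes, inhibitors and E2F genes held a CHR in 2, a CCAAT box in 7 and an E2F element in 3.

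The following stretches, 120 bases before to 30 bases after the RefSeq start, show the elements in capitals and all other bases in lower case, 5′ to 3′ on the strand of the gene. The cyclin gene Ccnb2, Cdc20 and Cdk1 stand for mitotic genes with a CHR and CCAAT boxes that rose in the induced libraries, and Cenpf for one with both elements that was not called. Ccnb1, with CCAAT boxes alone, and Birc5, with none of the 3 elements, rose without a CHR in the window. Mcm6 stands for an S phase gene with E2F elements, and Tk1 for the S phase gene with the largest change and none of the 3 elements in its window; its RefSeq start lies inside the GENCODE gene model.
Ccnb2 (chr9:70421525-70421674, minus strand): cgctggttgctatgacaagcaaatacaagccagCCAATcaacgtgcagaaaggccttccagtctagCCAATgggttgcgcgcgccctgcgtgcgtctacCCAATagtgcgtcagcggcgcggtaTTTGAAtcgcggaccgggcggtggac
Cdc20 (chr4:118437314-118437463, minus strand): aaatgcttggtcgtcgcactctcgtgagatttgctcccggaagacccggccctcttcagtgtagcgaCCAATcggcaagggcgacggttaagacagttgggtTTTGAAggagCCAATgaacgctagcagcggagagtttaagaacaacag
Cdk1 (chr10:69352883-69353032, minus strand): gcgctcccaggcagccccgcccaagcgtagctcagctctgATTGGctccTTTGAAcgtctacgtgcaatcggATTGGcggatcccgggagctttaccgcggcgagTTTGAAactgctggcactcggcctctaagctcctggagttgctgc
Cenpf (chr1:189688057-189688206, minus strand): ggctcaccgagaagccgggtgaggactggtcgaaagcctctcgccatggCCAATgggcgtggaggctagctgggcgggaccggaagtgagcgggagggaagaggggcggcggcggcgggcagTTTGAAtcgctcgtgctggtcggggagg
Ccnb1 (chr13:100786457-100786606, minus strand): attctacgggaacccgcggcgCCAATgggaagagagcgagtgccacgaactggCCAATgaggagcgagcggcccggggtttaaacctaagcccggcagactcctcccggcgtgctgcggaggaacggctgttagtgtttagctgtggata
Birc5 (chr11:117849117-117849266, plus strand): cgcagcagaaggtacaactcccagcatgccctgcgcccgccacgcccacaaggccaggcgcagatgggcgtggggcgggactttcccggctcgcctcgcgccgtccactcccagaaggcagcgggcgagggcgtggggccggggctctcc
Mcm6 (chr1:128359676-128359825, minus strand): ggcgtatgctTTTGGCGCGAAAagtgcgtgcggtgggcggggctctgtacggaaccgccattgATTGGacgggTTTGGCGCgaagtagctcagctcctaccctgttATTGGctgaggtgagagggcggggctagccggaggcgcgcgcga
Tk1 (chr11:117825985-117826134, minus strand): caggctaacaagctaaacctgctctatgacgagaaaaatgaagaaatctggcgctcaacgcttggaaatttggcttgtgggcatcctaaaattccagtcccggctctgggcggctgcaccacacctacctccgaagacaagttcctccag

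In the stretches of Ccnb2 and Cenpf the CHR begins 4 and 2 bases from the start, downstream of the CCAAT boxes. In Cdk1 a CHR lies on each side of the CCAAT box nearest to the start, and in Cdc20 the CHR lies between CCAAT boxes. In Mcm6 E2F matches on opposite strands overlap as 1 run of capitals. Among genes with a window, elements were found both in genes that rose and in genes that were not called. Of the 14 G2 and M phase genes with a CHR in the window 10 rose and 4 were not called. The 3 without, Birc5, Ccnb1 and Cenpe, all rose, though the call of Cenpe was lost under several alternatives. Aurkb, Ccna2, Kif20a and Tpx2 had no window and are not in these counts. With only 3 genes without a CHR, the counts cannot show whether the element goes with a rise. Of 6 S phase genes with an E2F element 3 rose, and of 4 without 3 rose. A match is a run of letters, not a shown binding site.

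**Figure D1:**
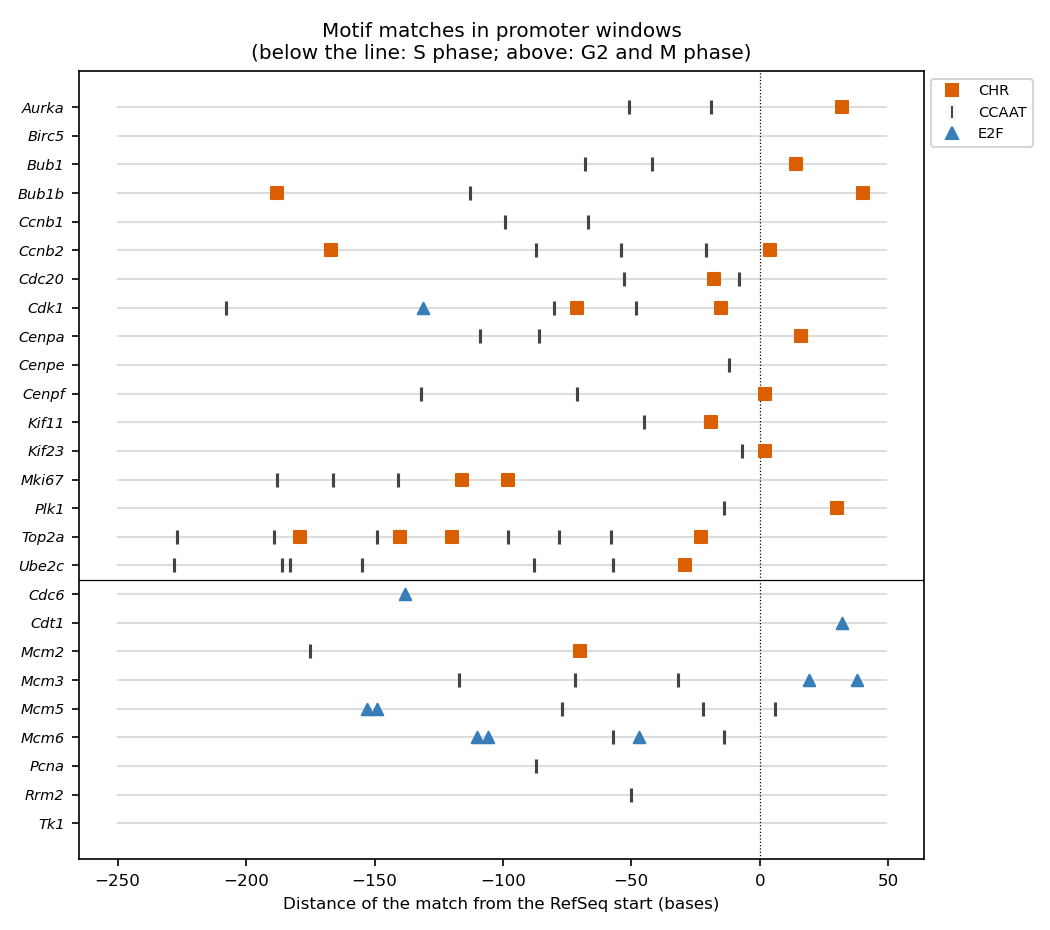
Positions of CHR (squares), CCAAT (bars) and E2F (triangles) matches in the promoter windows of S phase genes (below the line) and G2 and M phase genes (above it) that have 1 window, as distance in bases from the RefSeq start (dotted line). CHR matches are frequent in G2 and M phase genes (14 of 17 windows) and E2F matches in S phase genes.

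The comparison asked how the transcripts of the cell cycle differ between the induced line and the line labelled as a Mixl1 knockout. All 46 genes passed the filter on low counts, the lowest value being 21 reads in a library. By edgeR's quasi-likelihood test, at an adjusted p under 0.05, 33 of the 46 (71.7%) were called, against 62.6% of all 15091 genes tested. The share called was thus close to that of all genes, while the directions were not even. Of the 46, 28 rose (60.9%, against 31.0% of all genes tested) and 5 fell (10.9%, against 31.6%). The changes were small. The median log2 fold change was 0.20, with a median over all genes tested of 0.0038, and 5 of the 46 genes (10.9%) moved by more than 0.5 on the log2 scale, against 34.0% of all genes. Knockout and induced libraries did not overlap for 36 of the 46 genes, which is 78.3% against 67.1% of all genes tested. The 46 genes were more abundant than most, with a median of 160 CPM against 22.6 CPM over all genes tested. Their fold changes had a median SE of 0.047, against 0.084 over all genes tested. The shares called and not overlapping are therefore not compared at equal precision. In bulk RNA, fewer cells of a phase and less of a transcript per cell cannot be told apart.

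**Figure D2:**
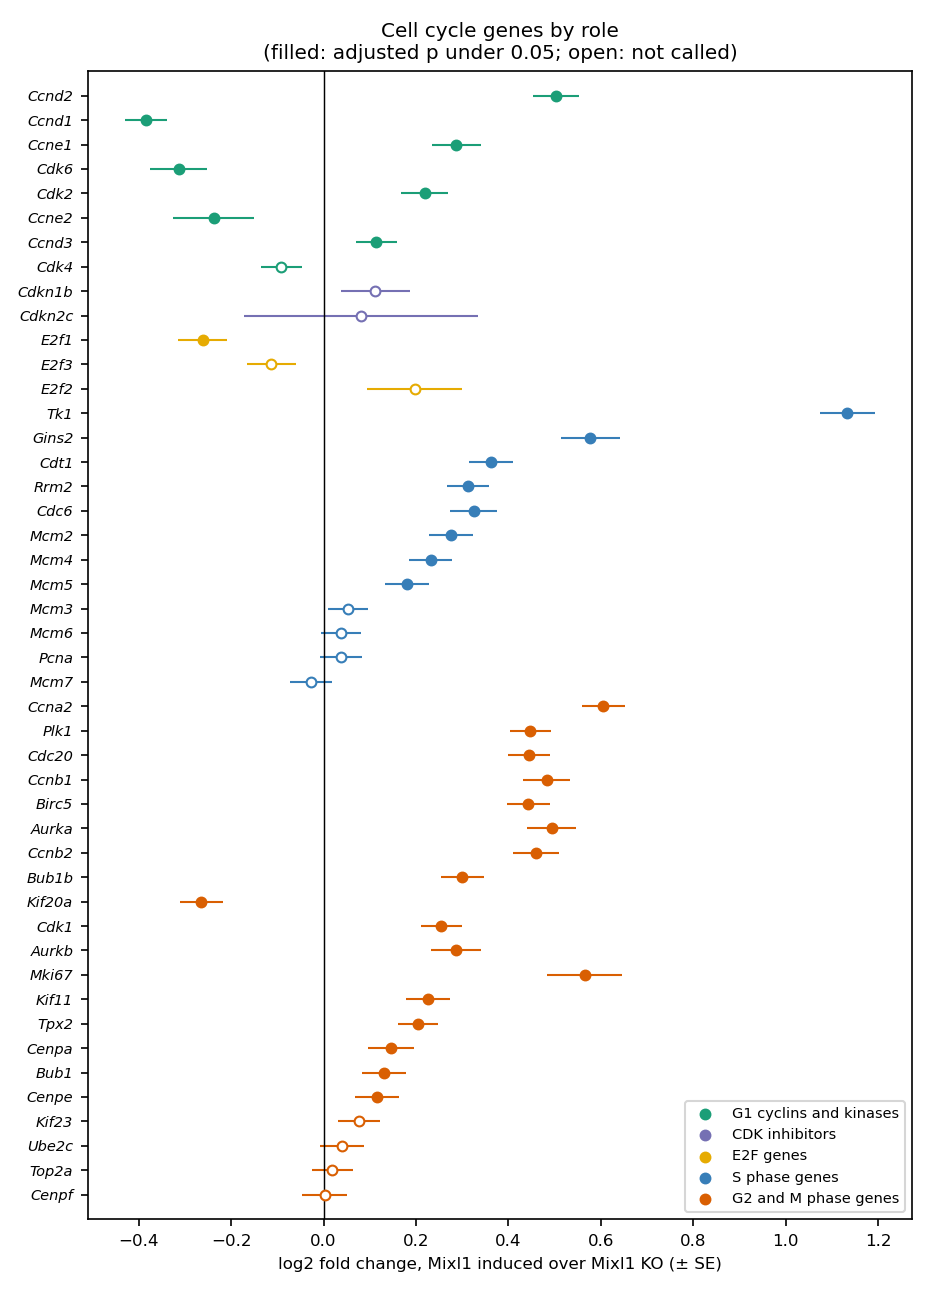
Log2 fold change (induced over knockout, horizontal axis, bars ± SE) of the 46 genes, ordered by role and then by p; filled points passed an adjusted p under 0.05 and open points did not. Values lie between -0.38 for Ccnd1 and 1.13 for Tk1, and the G2 and M phase points lie to the right of 0 except Kif20a.

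G1 cyclins and kinases went both ways, with a median log2 fold change of 0.01. Of the 8, 4 rose (50%, against 31.0% of all genes tested) and 3 fell (37.5%, against 31.6%). The largest changes were a fall of Ccnd1 and a rise of Ccnd2, which encode cyclins D1 and D2, the growth-factor-dependent partners of CDK4 and CDK6. Ccnd1 (chr7:144929931-144939925, minus strand, ENSMUSG00000070348.5; positions are from GENCODE M21 on mm10) stood at 202, 202 and 208 CPM in the knockout libraries and at 151, 157 and 161 CPM in the induced libraries. Each induced library was below each knockout library. The log2 fold change was -0.38 (SE 0.045, edgeR adjusted p = 1.45e-07). Ccnd2 (chr6:127125162-127152193, minus strand, ENSMUSG00000000184.12) stood at 331, 309.6 and 293 CPM in the knockout libraries and at 421, 440.1 and 462 CPM in the induced libraries. Here each induced library was above each knockout library, with a log2 fold change of 0.50 (SE 0.050, edgeR adjusted p = 1.23e-08). Ccnd3, for cyclin D3, had a log2 fold change of 0.11 (SE 0.044, edgeR adjusted p = 0.0265). That small rise was no longer called without knockout replicate 1 (0.105), knockout replicate 2 (0.104), induced replicate 2 (0.0760) or induced replicate 3 (0.0548), nor with no filter on low counts (0.0595).

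The D-type cyclins therefore changed in composition. Per kilobase of annotated exon, Ccnd1 had the highest level of the 3 in the knockout libraries at 43.3 ± 0.756 CPM per kb (SD, n = 3), close to Ccnd3 at 42.6 ± 1.18 and above Ccnd2 at 33.1 ± 2.01. In the induced libraries Ccnd2 at 46.9 ± 2.14 and Ccnd3 at 46.1 ± 1.05 CPM per kb did not differ beyond their spread, and Ccnd1 at 33.2 ± 1.05 was below both. As a share of the reads per kb of the family, Ccnd1 went from 36.4% ± 0.743 to 26.3% ± 0.0277 and Ccnd2 from 27.8% ± 1.54 to 37.1% ± 0.548 (SD, n = 3), and for both shares the groups did not overlap. The share of Ccnd3 was 35.8% ± 0.864 and 36.6% ± 0.522, with overlap. Shares within a library do not depend on how libraries are scaled. Exon lengths are the union over all annotated transcripts, so a level per kb is low for a gene with rarely used exons.

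Cyclin E genes, whose products activate CDK2 at the entry to S phase, also moved in opposite directions. Ccne1 stood at 74.1, 73.0 and 81.4 CPM in the knockout libraries and at 95.7, 90.5 and 92.6 CPM in the induced libraries, without overlap (log2 fold change 0.29, SE 0.053, edgeR adjusted p = 7.01e-05). Ccne2 stood at 37.2, 29.98 and 40.5 CPM and 29.6, 30.7 and 31.2 CPM. The knockout replicate 2 value of Ccne2 lay among the induced values, so its groups overlapped. Its log2 fold change was -0.24 (SE 0.087, edgeR adjusted p = 0.0236), and this call was lost without knockout replicate 1 (0.0627), knockout replicate 3 (0.126), induced replicate 1 (0.0834) or induced replicate 2 (0.0629). Ccne1 was the main E-type cyclin transcript in both groups, with 73.7% ± 2.16 of the reads per kb of the pair in the knockout and 80.0% ± 0.805 in the induced libraries.

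Of the kinases, Cdk2 rose and Cdk6 fell. Cdk2 stood at 79.0, 82.9 and 80.4 CPM in the knockout libraries and at 89.5, 97.9 and 94.8 CPM in the induced libraries (log2 fold change 0.22, SE 0.051, edgeR adjusted p = 7.60e-04). Cdk6 stood at 79.3, 86.0 and 77.0 CPM and 68.6, 67.6 and 58.6 CPM, all induced values below all knockout values (log2 fold change -0.31, SE 0.062, edgeR adjusted p = 1.61e-04). Cdk4, by far the more abundant D-cyclin kinase at 241 ± 2.96 CPM per kb against 5.77 ± 0.335 for Cdk6 in the knockout libraries, had a log2 fold change of -0.09 and was not called (edgeR adjusted p = 0.0836). It passed without induced replicate 3, at a log2 fold change of -0.13 (adjusted p = 0.00832).

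**Figure D3:**
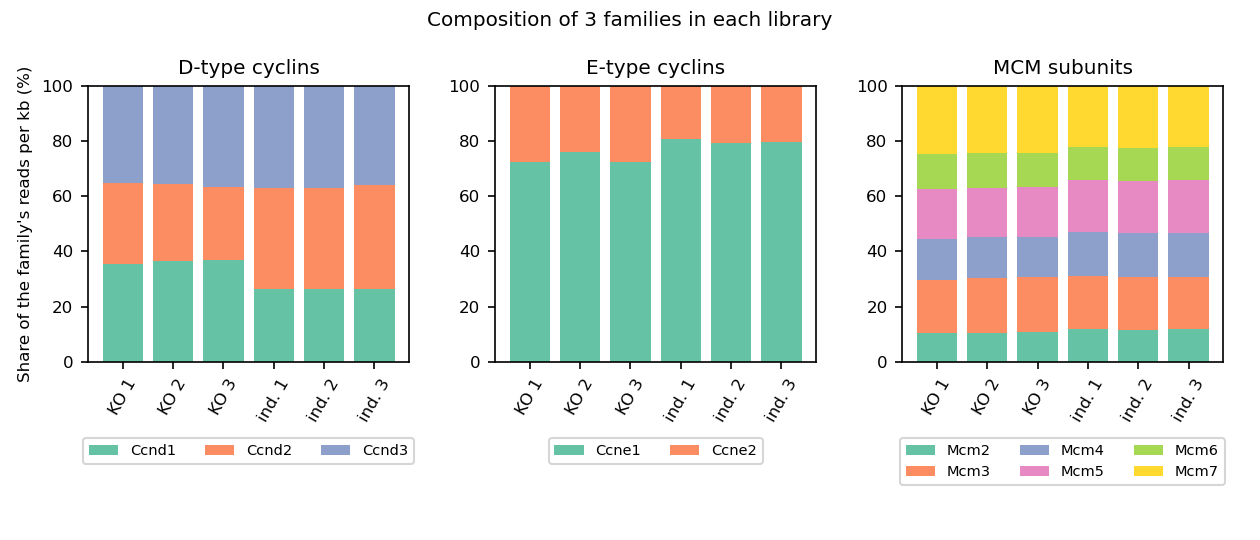
Share of the reads per kb of a family held by each member, in percent, in each of the 6 libraries (KO, knockout; ind., induced), for the D-type cyclins, the E-type cyclins and the MCM subunits. Ccnd1 gives way to Ccnd2 in the 3 induced libraries (36.4% ± 0.743 against 26.3% ± 0.0277 for Ccnd1), and among the MCM genes Mcm7 goes from 24.3% ± 0.245 to 22.2% ± 0.235.

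Of the listed CDK inhibitors and E2F genes, only E2f1 was called by this test, while 62.6% of all genes tested were. Cdkn1b, which encodes p27, an inhibitor of CDK2, stood at 25.03, 22.5 and 24.4 CPM in the knockout and 26.2, 24.3 and 27.1 CPM in the induced libraries, and the groups overlapped (log2 fold change 0.11, edgeR adjusted p = 0.203). Cdkn2c, for the CDK4 and CDK6 inhibitor p18, was low in all libraries, between 1.15 and 1.94 CPM, with a log2 fold change of 0.08 (SE 0.253, edgeR adjusted p = 0.801). The count of 0 for the 2 inhibitors was also 0 at an unadjusted p under 0.05, by DESeq2 and by limma-voom. E2f1, which encodes an E2F activator, stood at 63.9, 67.4 and 65.0 CPM in the knockout libraries and at 54.5, 55.1 and 54.1 CPM in the induced libraries. It fell without overlap (log2 fold change -0.26, SE 0.053, edgeR adjusted p = 1.81e-04). The other activators E2f2 and E2f3 had log2 fold changes of 0.20 and -0.11 (edgeR adjusted p = 0.0995 and 0.0682). Their groups did not overlap either, which held for 67.1% of all genes tested, but neither gene was called. E2f3 passed without knockout replicate 1 (log2 fold change -0.15, adjusted p = 0.0323), which makes 2 E2F genes lower in place of 1.

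Of the 12 S phase genes, 8 rose and none fell by edgeR, nor at an unadjusted p under 0.05, by DESeq2 or by limma-voom. Their median log2 fold change was 0.25, and 66.7% of them rose, against 31.0% of all genes tested. Tk1, which encodes thymidine kinase of the thymidine salvage pathway, had the largest change of all 46 genes. Tk1 (chr11:117815526-117826092, minus strand, ENSMUSG00000025574.13) stood at 33.9, 30.3 and 32.0 CPM in the knockout libraries and at 70.5, 69.3 and 71.6 CPM in the induced libraries, a 2.20-fold difference. Its log2 fold change was 1.13 (SE 0.059, edgeR adjusted p = 1.86e-13). Gins2, for a subunit of the GINS complex of the replicative helicase, stood at 36.0, 32.2 and 32.8 CPM and 48.0, 51.6 and 51.4 CPM (log2 fold change 0.58, SE 0.063, edgeR adjusted p = 6.15e-08). In both genes each induced library was above each knockout library.

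The origin licensing factors Cdt1 and Cdc6, which load the MCM helicase on DNA in G1, rose together. Cdt1 stood at 122, 124 and 115 CPM in the knockout and 151, 154 and 159 CPM in the induced libraries (log2 fold change 0.36, SE 0.047, edgeR adjusted p = 6.36e-07). Cdc6 stood at 68.1, 71.6 and 72.6 CPM and 85.7, 90.1 and 90.1 CPM (log2 fold change 0.32, SE 0.051, edgeR adjusted p = 9.50e-06). Rrm2, for the small subunit of ribonucleotide reductase, which makes deoxyribonucleotides, stood at 404, 385 and 384 CPM and 474, 471 and 512 CPM (log2 fold change 0.31, SE 0.046, edgeR adjusted p = 3.93e-06). None of the 3 showed overlap between the groups. Pcna, for the sliding clamp of the replication fork, stood at 299, 293 and 313 CPM and 307, 299 and 323 CPM, with overlap, and was not called (log2 fold change 0.04).

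The 6 MCM genes encode the ring of the replicative helicase, in which each subunit is present in a single copy. Mcm2 stood at 410.3, 391 and 423 CPM in the knockout and 490.1, 472 and 522 CPM in the induced libraries, without overlap (log2 fold change 0.28, SE 0.048, edgeR adjusted p = 2.88e-05). Mcm4 and Mcm5 rose as well, with log2 fold changes of 0.23 and 0.18. Mcm3, Mcm6 and Mcm7 had log2 fold changes of 0.05, 0.04 and -0.03, with overlapping groups, and were not called. These calls were the same under each scaling of the libraries that was tried. Within a library, the share of Mcm2 in the reads per kb of the 6 genes went from 10.4% ± 0.183 to 11.7% ± 0.147 and that of Mcm7 from 24.3% ± 0.245 to 22.2% ± 0.235 (SD, n = 3), both without overlap. Mcm7 had the highest level per kb of the 6 in both groups and Mcm2 the lowest.

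Of the 21 genes of the G2 and M phases, 16 rose (76.2%, against 31.0% of all genes tested) and 1 fell (4.76%, against 31.6%). The median log2 fold change of these genes was 0.26, with none above 0.61. Ccna2, for cyclin A2, which acts from S phase into mitosis, had the largest rise. Ccna2 (chr3:36564865-36572150, minus strand, ENSMUSG00000027715.9) stood at 210.0, 194 and 202 CPM in the knockout libraries and at 310.1, 293 and 319 CPM in the induced libraries (log2 fold change 0.61, SE 0.047, edgeR adjusted p = 2.17e-10). Ccnb1, for cyclin B1, the partner of CDK1 in mitosis, stood at 220.5, 192 and 200.5 CPM and 289, 273 and 295 CPM (log2 fold change 0.48, SE 0.051, edgeR adjusted p = 3.45e-08). Each induced library was above each knockout library in both genes. Ccnb2 had a log2 fold change of 0.46, and the B-type cyclins kept near-equal levels per kb, Ccnb1 holding 49.4% ± 1.62 of the pair in the knockout and 49.9% ± 0.567 in the induced libraries. Cdk1, the kinase itself, rose by 0.26 on the log2 scale (SE 0.045).

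Of the listed genes, the mitotic kinases Plk1, Aurka and Aurkb rose, as did Tpx2 and Birc5, which act with the aurora kinases. Plk1, for polo-like kinase, which acts in centrosome maturation and spindle assembly, stood at 148, 144 and 147 CPM in the knockout libraries and at 194, 197 and 207 CPM in the induced libraries (log2 fold change 0.45, SE 0.045, edgeR adjusted p = 1.43e-08). Aurka, for the spindle pole kinase aurora A, stood at 113, 115 and 130.5 CPM and 165, 168 and 172 CPM (log2 fold change 0.49, SE 0.053, edgeR adjusted p = 3.77e-08). Aurkb, for aurora B of the chromosomal passenger complex, had a log2 fold change of 0.29, and Tpx2, for the activator of aurora A on microtubules, of 0.20. Birc5, for survivin of the passenger complex, stood at 105, 101 and 100.3 CPM and 134, 142 and 141 CPM (log2 fold change 0.44, SE 0.047, edgeR adjusted p = 3.76e-08). None of these 5 genes showed overlap between the groups.

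Of the 2 listed genes that act with the anaphase-promoting complex at the exit from mitosis, Cdc20 rose and Ube2c was not called. Cdc20, for an activator of that ubiquitin ligase, stood at 234, 217 and 218 CPM in the knockout and 302, 296 and 312 CPM in the induced libraries (log2 fold change 0.44, SE 0.046, edgeR adjusted p = 2.15e-08). Ube2c, for its ubiquitin-conjugating enzyme, stood at 145, 144 and 149 CPM and 147, 144 and 158 CPM, with overlap (log2 fold change 0.04). The checkpoint gene Bub1b rose by 0.30 on the log2 scale. The smallest rises that were called were those of Cenpa, Bub1 and Cenpe, at 0.15, 0.13 and 0.12, of which Cenpa encodes the centromeric histone and Cenpe a kinetochore motor. The Cenpa call was lost without knockout replicate 3 (0.0781) or induced replicate 3 (0.0681). That of Bub1 was lost without knockout replicate 2 (0.123), induced replicate 1 (0.0561) or induced replicate 3 (0.0545). The call of Cenpe was lost without knockout replicate 1 (0.146), knockout replicate 2 (0.0609), knockout replicate 3 (0.0656), induced replicate 1 (0.196) or induced replicate 2 (0.0767), and also with no filter on low counts (0.0898), with a minimum of 1 CPM in 3 libraries (0.0501) and by DESeq2 (0.0716).

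Kif20a was the only one of the 21 listed G2 and M phase genes that fell. It encodes a kinesin of the central spindle that acts in cytokinesis. It stood at 369.8, 356 and 345 CPM in the knockout libraries and at 299.8, 282 and 309 CPM in the induced libraries, each induced library below each knockout library (log2 fold change -0.27, SE 0.047, edgeR adjusted p = 3.78e-05). Kif20a overlaps Cdc23 on the other strand, and its log2 fold change kept its sign and call with unstranded counts. The spindle kinesin Kif11 rose by 0.23 on the log2 scale, and the cytokinesis kinesin Kif23 was not called (0.08). Top2a, for the topoisomerase that untangles chromosomes, and Cenpf, for a kinetochore protein, had log2 fold changes of 0.02 and 0.00 and were not called. Mki67, the common marker of cycling cells, stood at 322, 344 and 294 CPM and 512, 494 and 413 CPM. It rose without overlap but with a larger SE than the 20 other genes of these phases (log2 fold change 0.57, SE 0.082, edgeR adjusted p = 1.24e-04).

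**Figure D4:**
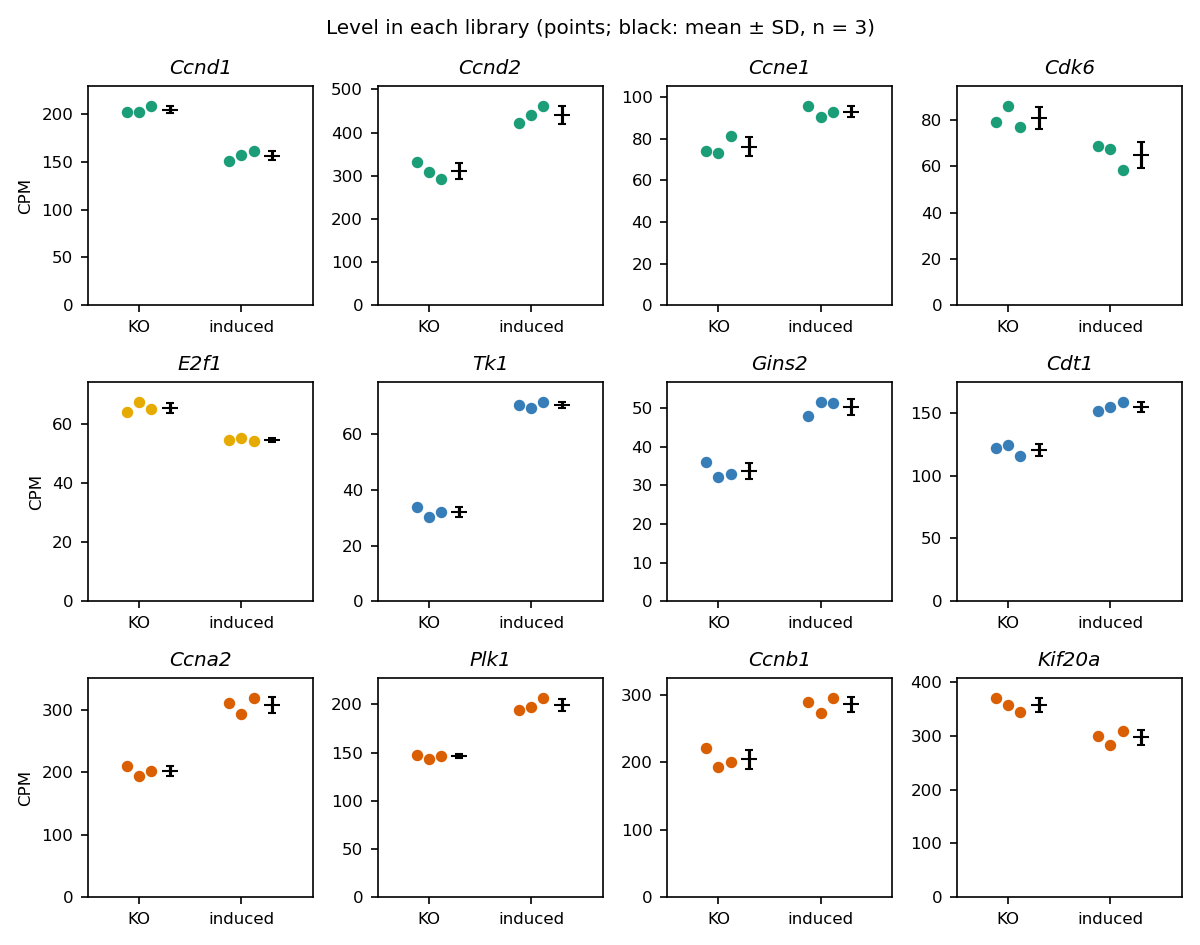
Level in CPM (vertical axes, from 0) of 12 genes in each of the 3 knockout and 3 induced libraries (points, coloured by role as in the plot of fold changes), with mean ± SD (n = 3) in black. Ccnd1, Cdk6, E2f1 and Kif20a are lower in each induced library than in each knockout library, and the other 8 genes are higher in each.

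Summed over a role, the G2 and M phase genes came to 3867 to 3984 CPM in the knockout and 4555 to 4706 CPM in the induced libraries, a 1.18-fold difference of means. S phase genes came to 3328 to 3463 CPM and 3722 to 3999.9 CPM, a 1.12-fold difference. G1 cyclins and kinases came to 1921 to 1968 CPM and 1962 to 2083 CPM, which overlap, and the 3 E2F genes to 148 to 154 CPM and 134 to 139.6 CPM. These sums describe the libraries and were not tested.

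Among markers of other cells that the cultures could hold, macrophage markers fell together, while fibroblast markers went both ways. All 10 macrophage markers examined were lower in the induced libraries, against 31.6% of all genes tested. Their summed level was 322 to 463 CPM in the knockout and 47.9 to 60.1 CPM in the induced libraries. Of 10 fibroblast markers, which the irradiated feeder cells would carry, 3 were higher (Col1a2, Thy1 and Lum), against 31.0% of all genes tested. Lower were 5 (Dcn, Twist2, Col6a3, Postn and Col1a1), against 31.6%, and Col3a1 and Fbln1 were not called. The sum of the fibroblast markers was 903 to 1083 CPM in the knockout and 669 to 861 CPM in the induced libraries. No marker of either list was at 0 in all libraries. The part of such cells in the cell cycle values was not tested.

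The authors' deposited table gave 43 of the 46 genes the same call as here and no gene the opposite direction. The 3 others were Ccne2, Ccnd3 and Cenpe, which were not called in the authors' deposited table (adjusted p = 0.0847, 0.0544 and 0.0764, DESeq2).

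Lists of 153 further cell cycle genes, all tested, held 77 that rose (50.3%, against 31.0% of all genes tested) and 29 that fell (19.0%, against 31.6%). These lists were written with earlier results of these data known. The 4 members with the smallest p in each list are named. The regulators of mitotic transcription held the largest rise. Mybl2, which encodes B-MYB, stood at 66.1, 72.3 and 67.3 CPM in the knockout libraries and at 272, 247 and 243 CPM in the induced libraries, a 3.71-fold difference (log2 fold change 1.89, SE 0.054, edgeR adjusted p = 4.56e-18). Foxm1 rose by 0.32 on the log2 scale, while the MuvB subunit genes Lin37 and Lin52 were at -0.52 and -0.31. Of the 8 genes of this list, 4 rose (50%, against 31.0% of all genes tested) and 3 fell (37.5%, against 31.6%). The count of 4 was 2 by DESeq2 and without induced replicate 2 or 3.

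Of 36 genes of the spindle, kinetochore and cytokinesis, 25 rose (69.4%, against 31.0% of all genes tested) and 3 fell (8.33%, against 31.6%). The median log2 fold change of the list was 0.20. Kifc1, for a minus-end-directed spindle kinesin, went from 137 ± 1.80 CPM to 256 ± 10.3 CPM (± SD, 3 libraries each), with a log2 fold change of 0.90 (SE 0.046, edgeR adjusted p = 1.29e-13). Hmmr, Tacc3 and Ckap2, all for spindle-associated proteins, had log2 fold changes of 0.65, 0.48 and 0.52. The 3 that fell were Ndc80, Nuf2 and Spc25 (-0.36, -0.19 and -0.24), which encode 3 of the 4 subunits of the NDC80 complex of the kinetochore; the fourth, Spc24, rose (0.35). The NDC80 genes fall outside the naming rule and were chosen with their values in view. Of 13 condensin and cohesin genes 9 rose (69.2%, against 31.0% of all genes tested) and 1 fell (7.69%, against 31.6%). The 1 that fell was Ncaph2 (-0.12), picked for its direction. Smc1a was at 0.54, Stag1 at 0.39, Ncapd2 at 0.30 and Ncapg2 at 0.34. Ncaph2 was not called with unstranded counts or without induced replicate 2.

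In both further lists of replication genes, more genes rose than fell. Of 20 genes of origin licensing and firing 11 rose (55%, against 31.0% of all genes tested) and 5 fell (25%, against 31.6%). Orc1 was at 0.52, Mcm10 at 0.34, Gmnn, for the inhibitor geminin, at 0.38, and Mtbp at -0.53 on the log2 scale. Of 32 genes of DNA polymerases, fork proteins and nucleotide supply 13 rose (40.6%, against 31.0%) and 4 fell (12.5%, against 31.6%). The share of this list that was called was 53.1%, against 62.6% of all genes tested. Chaf1b, for a histone chaperone subunit, Clspn, for the checkpoint protein claspin, and Pola2 had log2 fold changes of 0.78, 0.75 and 0.53. Lig1, for the ligase that joins Okazaki fragments, fell from 518 ± 38.8 CPM to 315 ± 13.0 CPM (± SD, 3 libraries each), with a log2 fold change of -0.72 (SE 0.052, edgeR adjusted p = 1.01e-10).

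Of 16 other inhibitors, pocket proteins and E2F partners 7 rose (43.8%, against 31.0% of all genes tested) and 4 fell (25%, against 31.6%). The share called, 68.8%, was near the 62.6% of all genes tested. The 4 that fell were Cdkn1a, Cdkn2b, Cdkn1c and Cdkn2a, of which the last 2 were picked after their values were seen. Of the other inhibitor genes on the list, Cdkn2d rose and Cdkn3 was not called (log2 fold change -0.11, edgeR adjusted p = 0.525). Cdkn1a, for the p53 target p21, stood at 366, 351 and 342 CPM in the knockout and 194, 215 and 207 CPM in the induced libraries (log2 fold change -0.78, SE 0.048, edgeR adjusted p = 3.38e-12). Cdkn1c, for p57, an imprinted gene, stood at 178, 180.0 and 241 CPM and 75.9, 75.8 and 80.4 CPM, with knockout replicate 3 above the other knockout libraries (log2 fold change -1.37, SE 0.129, edgeR adjusted p = 1.15e-04). Cdkn2b and Cdkn2a, low in both groups, fell by 1.31 and 1.24 on the log2 scale. Fibroblast and macrophage marker sums were lower in the induced libraries too, though single fibroblast markers went both ways. The part of such cells in these falls was not tested. The log2 fold change of Cdkn2d was 0.69. Genes that rose also included E2f6 (0.47), E2f7 (0.45) and E2f8 (0.46), which encode E2F repressors. Cdkn2d, Cdkn3 and E2f8 were picked after their values were seen.

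Of 28 genes of CDK1 control and the anaphase-promoting complex, 8 rose (28.6%, against 31.0% of all genes tested) and 9 fell (32.1%, against 31.6%). The share called, 60.7%, was near the 62.6% of all genes tested. Pttg1, for securin, went from 42.6 ± 4.74 CPM to 70.0 ± 4.45 CPM (± SD, 3 libraries each), by 0.72 on the log2 scale. Cks2, for a CDK-binding subunit, Anapc15 and Ccnf were at 0.47, 0.35 and 0.28 on the log2 scale. The number that fell was 5 without induced replicate 1 or 2.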

How the data were processed

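RNA of 6 libraries, 3 per group, was sequenced. The authors deposited raw read counts per gene from each; bcl2fastq, STAR and DESeq2 with mm10 are named in the submitters' processing notes, without versions or an annotation release. Of the deposited count columns, the one for the strand opposite to the first read entered the tests, with 96.2% to 96.3% of stranded gene reads. Rows naming no gene (15.1% to 17.6% of reads) were left out throughout. Reads that map to several places were not counted, which can lower Ccnb1, Ccnb2, Ccnd3 and Pcna, the 4 genes with a named pseudogene. Of the 46 genes, 5 overlap another gene on the same strand and 20 one on the other strand. Identifiers were matched to GENCODE M21 (55144 of 55471).

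The authors also deposited a table of their comparison that holds, per the file headers, log2 fold changes with errors, a mean normalised count (signal), the test score, p-values and a −log10 of the adjusted p, by its values. Its log2 fold changes and p-values were read for the 46 genes.

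The counts were fitted here with edgeR (version 4.0.16, R 4.3.3: filterByExpr, TMM, robust quasi-likelihood fit with the group as the only term, two-sided test), with Benjamini-Hochberg adjustment over all 15091 genes and a threshold of 0.05. Fold changes are induced over knockout, and the SE is the size of the log2 fold change over the square root of F. The fit was tested on simulated counts. The median SE of the 46 log2 fold changes was 0.047. Intervals of shares cover counting error only. Values per library are given, in each role, for up to 6 called genes with the smallest p and any called gene that went against its role; genes named outside this rule were chosen after their values were seen, and the rest of the 46 are given by fold change. From each further list, up to 4 called genes with the smallest p are named. The genes, lists and rules were chosen with earlier results of these data known. Alternatives were size factors of DESeq2 1.42.0 or upper-quartile scaling, no filter or a minimum of 1 CPM in 3 libraries, unstranded counts, a term for the replicate number, each library left out, the DESeq2 test, limma-voom (limma 3.58.1), an adjusted p under 0.01 and a shorter promoter window.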

Additional observations from a re-analysis of the deposited data

How the results depend on the processing

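Counts of called genes, over all genes, by role and over the further lists together, came to 240 values under the alternatives, of which 238 lay within 1.5 times the reported count. The 2 others concern E2F genes that fell, 1 in the fit as reported: leaving out a library gave 1 to 2, and a term for the replicate number (replicate block) gave 2, E2f3 then passing at an adjusted p of 0.049. The labels do not say whether the numbers pair the libraries. Same-numbered libraries deviated from their group means with correlations of -0.0026, 0.046 and 0.040, and not every library correlated best with its own number. With 3 libraries per group these correlations cannot decide whether the libraries are paired. The block changed no other call among the 46 genes. Of 644 fold changes of single genes under alternatives, 619 were called or not called as reported, 22 lost the call and 3 gained one. Cenpa, Cenpe, Bub1, Ccnd3, Ccne2, Cdk4 and E2f3 account for these changes. No called fold change reversed its sign. The uncalled fold changes of Cdkn2c, Cenpf, Top2a and Ube2c did change sign under some alternatives, that of Cdkn2c ranging from -0.099 to 0.24. With the 250 bases before the start alone, a CHR lay in 47.1% of the G2 and M phase windows and 17.1% of all windows, because part of the matches lie behind the start, CCAAT and E2F elements lay in 33.8% and 1.86% of all windows, and E2F elements in 36.4% of S phase windows. Another scaling moved the median of all genes by less than 0.01 on the log2 scale. Depth limits Cdkn2c most, at 21 to 34 reads per library.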

Other observations

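Positions of the CCAAT boxes were looked at after the searches above. In 5 of 17 windows of G2 and M phase genes (29.4%, exact 95% interval 10.3% to 56.0%), those of Aurka, Ccnb1, Ccnb2, Cdk1 and Ube2c, a pair of CCAAT boxes lay on the same strand with starts 31 to 35 bases apart. The same held for 0.922% of all promoter windows and for none of the 11 windows of S phase genes and the 14 of G1 genes, inhibitors and E2F genes. The spacing range was chosen after the positions were seen.

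The subunits of the anaphase-promoting complex were set apart from the list of CDK1 control after their values were seen. Of 14 subunit genes 8 fell (Anapc5, Anapc7, Anapc11, Anapc13, Anapc16, Cdc16, Cdc23 and Cdc26), 2 rose (Anapc4 and Anapc15) and 4 were not called, with a median log2 fold change of -0.15. Of the 14 other genes of that list 6 rose, Pttg1, Cks2, Ccnf, Cdc25b, Wee1 and Cks1b, and Fbxo5, which encodes an inhibitor of the complex, fell. Cdc20, for an activator of the complex, rose, while Fzr1 of that list, for another activator, was not called (log2 fold change 0.04, edgeR adjusted p = 0.483). Over all genes tested, 31.0% rose and 31.6% fell.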
